A study of Mus musculus with 6 samples.

Results

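Gene-desert regions are accessible chromatin regions of R1 mouse embryonic stem cells that lie far from every protein-coding gene. A region of chromosomes 1 to 19 was taken as a member when its midpoint lay outside all protein-coding genes and more than 200 kb from the nearest annotated limit of any of them. This held for 2404 of the 68288 autosomal regions (3.52%), in a table of 69689 regions in all. Each row of that table gives a position on the mm10 assembly and the name of 1 of 9 clusters that the authors assigned. It holds no value per library, and the sources used here do not say what pattern of accessibility a cluster name stands for.

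The regions came from ACC-seq, in which the Tn5 transposase cuts open chromatin and ties sequencing adapters to the cut ends. The 6 libraries formed 3 groups of 2, all from wild-type R1 cells grown with serum, LIF and 2i on a feeder layer of mouse embryonic fibroblasts, which was removed by replating. Fresh cells were not fixed and were tagmented at 37 °C. Fix cells stood in 1% formaldehyde for 10 min and were tagmented at 55 °C. Fix_1,6-Hex cells received 1,6-hexanediol at 10% (w/v), an alcohol known to dissolve biomolecular condensates, for 30 s ahead of the same fixation and also throughout it, and were tagmented at 55 °C. Tagmentation took 30 min in each group. With 1 cluster name per region for all libraries together, no contrast between the groups could be computed, and the depth behind a region is unknown. The results below describe where the desert regions lie, how wide they are and which clusters they belong to. Errors are SDs over autosomes, which show the variation along the genome and not that between cultures. No expression values were at hand to check the cell type against its markers.

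Gene deserts are long stretches of a mammalian genome without protein-coding genes. Accessible sites in them are often distal enhancers or binding sites of architectural proteins such as CTCF, and some deserts carry remote enhancers of the developmental regulators at their edges. Deserts also hold non-coding genes, among them long non-coding RNAs (lncRNAs) and microRNA hosts. In embryonic stem cells, distal enhancers are typically bound by pluripotency factors such as OCT4, SOX2 and KLF proteins.

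The desert regions whose sequence could be read were those over the start of a lncRNA gene, since the start windows of RefSeq (250 bases before to 50 bases after the annotated start, assembly GRCm38.p6, the primary coordinates of mm10) were at hand and the sequence of the other regions was not used here. A window counted as accessible when at least 150 of its 300 bases lay in a region. Only 32 of the 1023 windows of lncRNA genes in desert sequence (3.13%), from 31 genes, met this. The 4 windows printed here come from 4 different clusters and show how unlike each other these starts are. CpG dinucleotides, which are dense at most mammalian promoters and rare elsewhere, are in capitals, and each window lies wholly in its region.
Gm26901, cluster 3, chr1:7398047-7398346, minus strand, 18 CpG, in a region of 2083 bp: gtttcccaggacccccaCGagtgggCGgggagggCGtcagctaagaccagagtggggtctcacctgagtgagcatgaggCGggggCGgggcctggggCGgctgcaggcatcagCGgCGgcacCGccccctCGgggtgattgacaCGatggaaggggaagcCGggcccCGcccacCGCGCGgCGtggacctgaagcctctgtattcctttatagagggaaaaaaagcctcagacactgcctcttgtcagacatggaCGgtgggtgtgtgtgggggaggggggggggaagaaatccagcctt
E130006D01Rik, cluster 7, chr5:111761679-111761978, minus strand, 11 CpG, in a region of 1157 bp: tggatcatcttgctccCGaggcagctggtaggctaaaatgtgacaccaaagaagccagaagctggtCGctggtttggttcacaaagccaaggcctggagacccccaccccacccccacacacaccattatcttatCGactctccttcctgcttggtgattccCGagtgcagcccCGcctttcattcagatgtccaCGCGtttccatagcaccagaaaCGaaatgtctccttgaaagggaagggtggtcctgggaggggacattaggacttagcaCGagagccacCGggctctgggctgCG
Gm52029, cluster 1, chr13:47855909-47856208, minus strand, 5 CpG, in a region of 1075 bp: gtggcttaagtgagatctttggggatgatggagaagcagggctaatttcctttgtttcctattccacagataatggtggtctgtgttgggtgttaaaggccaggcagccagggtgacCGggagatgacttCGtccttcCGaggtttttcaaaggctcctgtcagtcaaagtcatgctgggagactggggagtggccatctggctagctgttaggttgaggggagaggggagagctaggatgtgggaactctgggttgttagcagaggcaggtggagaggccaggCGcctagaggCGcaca
C330004P14Rik, cluster 6, chr10:15791527-15791826, plus strand, 0 CpG, in a region of 733 bp: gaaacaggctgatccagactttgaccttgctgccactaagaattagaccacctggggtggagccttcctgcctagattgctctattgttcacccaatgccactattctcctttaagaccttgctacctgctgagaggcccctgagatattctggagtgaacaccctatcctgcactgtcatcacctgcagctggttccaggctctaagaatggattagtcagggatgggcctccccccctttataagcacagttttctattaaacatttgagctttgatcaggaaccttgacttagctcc

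The windows of Gm26901 and D230030E09Rik, the only accessible lncRNA starts of cluster 3 in deserts, both held 18 CpG, the most of any of the 32. At the other end, C330004P14Rik and Gm38838 of cluster 6 and Celrr of cluster 5 were among those that held none. Gm26901 was also the richest of the printed windows in G and C (65.7%, against 48.7% for C330004P14Rik). E130006D01Rik starts in the desert between Mn1 and Cryba4, and C330004P14Rik starts 1020 kb from the nearest protein-coding gene, between Nmbr and Cited2.

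Accessible regions were sparse in deserts. Per autosome there were 5.08 ± 1.15 regions per Mb of desert sequence (SD, n = 19 autosomes; lowest 3.85, median 4.70, highest 8.06), against 25.6 ± 4.50 per Mb of near intergenic sequence (20.1, 24.9 and 39.8). Near intergenic means outside protein-coding genes, more than 1 kb and at most 200 kb from the nearest gene limit. The density was lower in deserts on 19 of 19 autosomes, and the ranges did not overlap (two-sided exact sign-change permutation test over autosomes, adjusted p = 7.63e-06 over 4 measures). Deserts made up 479.0 Mb of autosomal sequence between genes and near intergenic sequence 933.0 Mb. The members covered 0.254% of the desert sequence, and near intergenic regions covered 1.64% of theirs. Unsequenced gaps of the assembly were not removed, so these densities are per Mb of assembly coordinates.

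The fall in density was gradual, with no step at 200 kb. There were 42.4 regions per Mb at 1 to 5 kb from a gene, 25.5 at 20 to 50 kb, 18.5 at 50 to 100 kb and 11.3 at 100 to 200 kb. Within deserts, 7.14 per Mb were found at 200 to 350 kb, 5.48 at 350 to 500 kb, 3.25 at 500 to 1000 kb and 2.97 beyond 1000 kb. At the 200 kb limit itself, 120 members lay within 10 kb inside it and 158 regions within 10 kb outside it. The nearest member inside was a cluster 7 region of 307 bp (chr9:61618628-61618934, 200.284 kb from a gene), and the nearest region left out was a cluster 5 region of 688 bp (chr2:160111056-160111743, 199.994 kb). The members' own distances had a median of 351.4 kb (quartiles 258.5 and 534.2 kb), 680 lay more than 500 kb from a gene and 211 more than 1000 kb.

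The desert regions differed from near intergenic ones in their mixture of clusters. Clusters 5, 6 and 7 took larger shares in deserts, and clusters 1, 3, 4 and 8 smaller ones, which makes 7 of 9 clusters that differed (two-sided exact sign-change permutation test over autosomes, Benjamini-Hochberg adjustment over 27 cluster shares, threshold 0.05). In percentage points the largest of these differences were the lower share of cluster 1 and the higher share of cluster 6. Cluster 9, the most numerous in deserts with 691 members, was not shown to differ.

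Cluster 1 held 7.96% ± 2.97 of desert regions on an autosome (lowest 0%, median 7.95%, highest 12.6%) and 18.8% ± 2.59 of near intergenic regions (14.8%, 18.4% and 23.8%). The highest desert share was below the lowest near intergenic share, a difference of -10.9 percentage points with 19 of 19 autosomes lower (exact adjusted p = 1.47e-05). None of the 29 desert regions of chromosome 19 belonged to cluster 1. Cluster 8 held 2.70% ± 1.6 of desert and 6.04% ± 1.24 of near intergenic regions and was lower on 18 of 19 autosomes, all but chromosome 1 (exact adjusted p = 2.06e-05).

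Cluster 6 held 20.3% ± 3.68 of desert regions (lowest 14%, median 20.5%, highest 26.4%), against 13.8% ± 2.17 near genes (10.6%, 13.1% and 17.1%). It was higher on every autosome except chromosome 18, by 6.55 percentage points on average (exact adjusted p = 2.81e-05), though the ranges overlapped. Cluster 7 held 27.5% ± 4.49 against 21.5% ± 2.16 and was higher on 17 of 19 autosomes, all but chromosomes 12 and 19 (5.99 percentage points, exact adjusted p = 0.00025). Cluster 5 held 9.98% ± 2.39 against 5.47% ± 1.15 and was higher on all autosomes but chromosome 12 (4.51 percentage points, exact adjusted p = 2.06e-05). Among regions of 200 to 500 bp only, the cluster 5 shares were 0.930% and 0.590% (exact adjusted p = 0.303). Only 17 of the 239 desert regions of that cluster were at most 500 bp wide. When distances were taken to all annotated genes, non-coding ones included, 11 autosomes had enough regions, and the calls ended for cluster 5 (10.9% against 5.99%, exact adjusted p = 0.219) and cluster 7 (25.9% against 22.8%, exact adjusted p = 0.434).

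The small clusters 2, 3 and 4 together gave 64 members. Cluster 3 held 0.829% ± 0.773 of desert regions and 1.59% ± 0.357 of near intergenic ones and was lower on 17 of 19 autosomes (exact adjusted p = 7.72e-05). Cluster 4 held 0.921% ± 1.00 against 1.51% ± 0.399 (exact adjusted p = 0.0469). Its call ended when any of 15 of the 19 autosomes was left out (exact adjusted p from 0.00383 to 0.0854) and held without chromosome 3, 7, 14 or 19. Cluster 2 (0.891% ± 0.924 against 0.997% ± 0.354, exact adjusted p = 0.733) and cluster 9 (28.9% ± 4.35 against 30.2% ± 2.26, exact adjusted p = 0.241) did not pass. Cluster 9 did pass as lower in deserts with 1 region per 50 kb (28.2% against 32.9%, exact adjusted p = 0.000375), without lncRNA genes and 1 kb around them, a setting added after seeing the data (27.8% against 30.5%, exact adjusted p = 0.0331), and beyond 500 kb. At other distances, near intergenic meant more than 1 kb and up to the distance used. At 100 kb the cluster 9 difference was 0.188 percentage points (exact adjusted p = 0.794). Counted the other way, deserts held 7.10% of all autosomal cluster 5 regions, 5.67% of cluster 6, 5.11% of cluster 7 and 3.84% of cluster 9, but 1.55% of cluster 1, 1.07% of cluster 8 and 0.800% of cluster 3, against 3.52% of all regions.

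**Figure D1:**
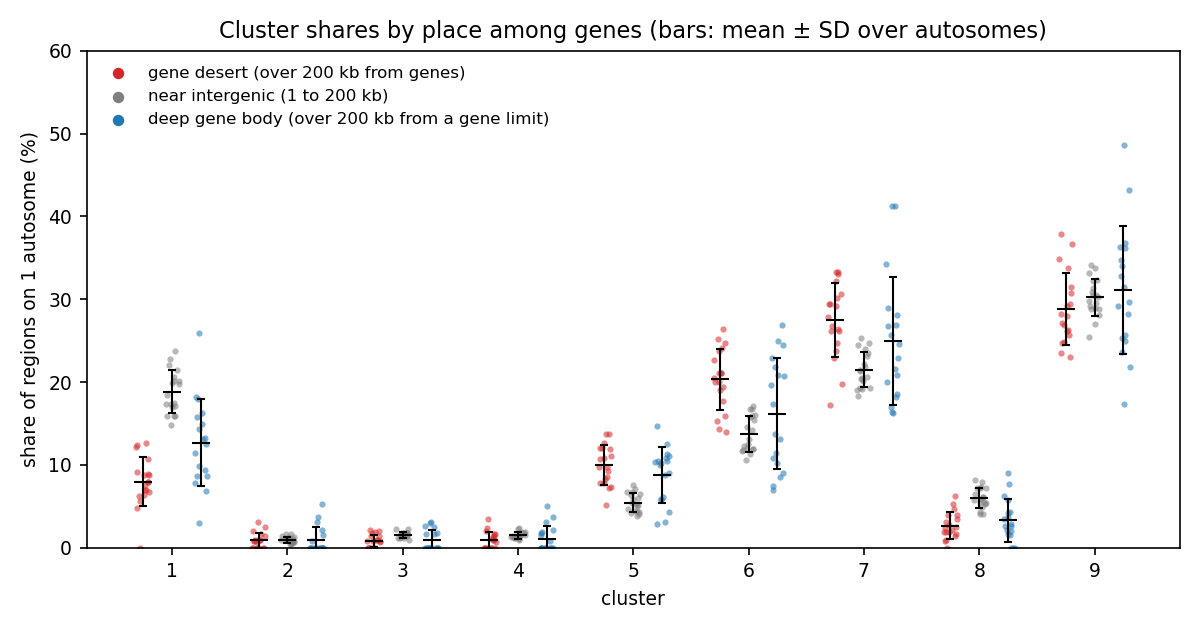
Share (%) of each cluster (horizontal axis) among desert regions (red), near intergenic regions (grey) and regions deep inside genes (blue), with 1 point per autosome and bars for the mean ± SD over 19, 19 and 18 autosomes. For cluster 1 the red points lie between 0% and 12.6%, below all grey points (14.8% to 23.8%), and for clusters 5, 6 and 7 most red points lie above the grey mean.

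Regions deep inside long genes offered a comparison beyond the same 200 kb limit. These 813 regions lay inside a protein-coding gene and more than 200 kb from every gene limit, and 18 autosomes had at least 10 of them. Their distances were not matched to those of the desert regions. Pooled, clusters 1 and 6 made up 11.2% and 16.6% of the deep regions. Among desert regions at 200 to 350 kb they made up 9.88% and 17.2%, and a comparison at matched distances was not tested. Cluster 1 was again scarcer in deserts, with 7.91% ± 3.05 against 12.7% ± 5.25 and 14 of 18 autosomes lower (-4.76 percentage points, exact adjusted p = 0.00718). Cluster 6 was more frequent in deserts, with 20.7% ± 3.44 against 16.2% ± 6.71 and 13 of 18 autosomes higher (4.50 percentage points, exact adjusted p = 0.0307). The cluster 6 call ended without chromosome 9, 10, 11, 14, 17 or 19 (exact adjusted p from 0.00827 to 0.0595 over all autosomes left out in turn). Neither call held with a distance of 100 kb in place of 200 kb (cluster 1 at -1.6 and cluster 6 at 1.67 percentage points, exact adjusted p = 0.159 and 0.193), with 1 region per 50 kb (-1.81 and 2.98, both exact adjusted p = 0.299) or among regions of 200 to 500 bp (-4.08 and 3.62, both exact adjusted p = 0.0906).

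The shares of cluster 5 (9.92% in deserts, 8.78% deep in genes), cluster 7 (27.2% and 25%), cluster 8 (2.72% and 3.33%) and cluster 9 (28.9% and 31.1%) did not pass this comparison (exact adjusted p = 0.132, 0.385, 0.522 and 0.394). At 100 kb cluster 5 did pass, with 8.33% against 7.16% (1.17 percentage points, exact adjusted p = 0.00387). The SD of the paired difference was 2.73 percentage points for cluster 5 and 8.81 for cluster 7, so a difference of a few points in cluster 7 was not detectable over 18 autosomes. Against all other autosomal regions, gene ends included, each of the 9 clusters differed, with cluster 1 at -11.2, cluster 8 at -6.60, cluster 7 at 8.91, cluster 6 at 8.09 and cluster 5 at 5.24 percentage points. The member rule keeps out gene ends. Pooled, clusters 2, 3 and 4 made up 7.90%, 12.5% and 11.7% of gene-end regions, against 1.04%, 1.54% and 1.53% of near intergenic ones. The count of 9 was thus partly set by the rule. Against all other regions cluster 9 was higher in deserts (28.9% against 26.4%, 15 of 19 autosomes, exact adjusted p = 0.0321). Its difference was -1.40 percentage points once regions within 1 kb of gene limits were left out (exact adjusted p = 0.253), and the call also ended without chromosome 1, 5, 9, 13, 14 or 19.

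Within the deserts the cluster mixture went on shifting with distance. From 200 to 350 kb to beyond 1000 kb, the share of cluster 6 went from 17.2% to 26.1%, that of cluster 7 from 26.4% to 32.2% and that of cluster 5 from 9.21% to 13.3%. Over the same distances cluster 1 went from 9.88% to 5.21% and cluster 9 from 32.0% to 19%. These shares pool 1194 regions in the nearest class and 211 in the farthest, and they are descriptions without a test. Near genes, cluster 1 and cluster 8 started higher, at 23.1% and 7.47% of regions 1 to 5 kb from a gene. Cluster 9 had its largest share, 33.4%, at 50 to 100 kb, and 28.3% at 1 to 5 kb. Beyond 500 kb cluster 9 was below its share in intergenic regions more than 1 kb and at most 500 kb from a gene. The shares were 21.7% and 30.2% over 18 autosomes (-8.53 percentage points, exact adjusted p = 0.000103).

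**Figure D2:**
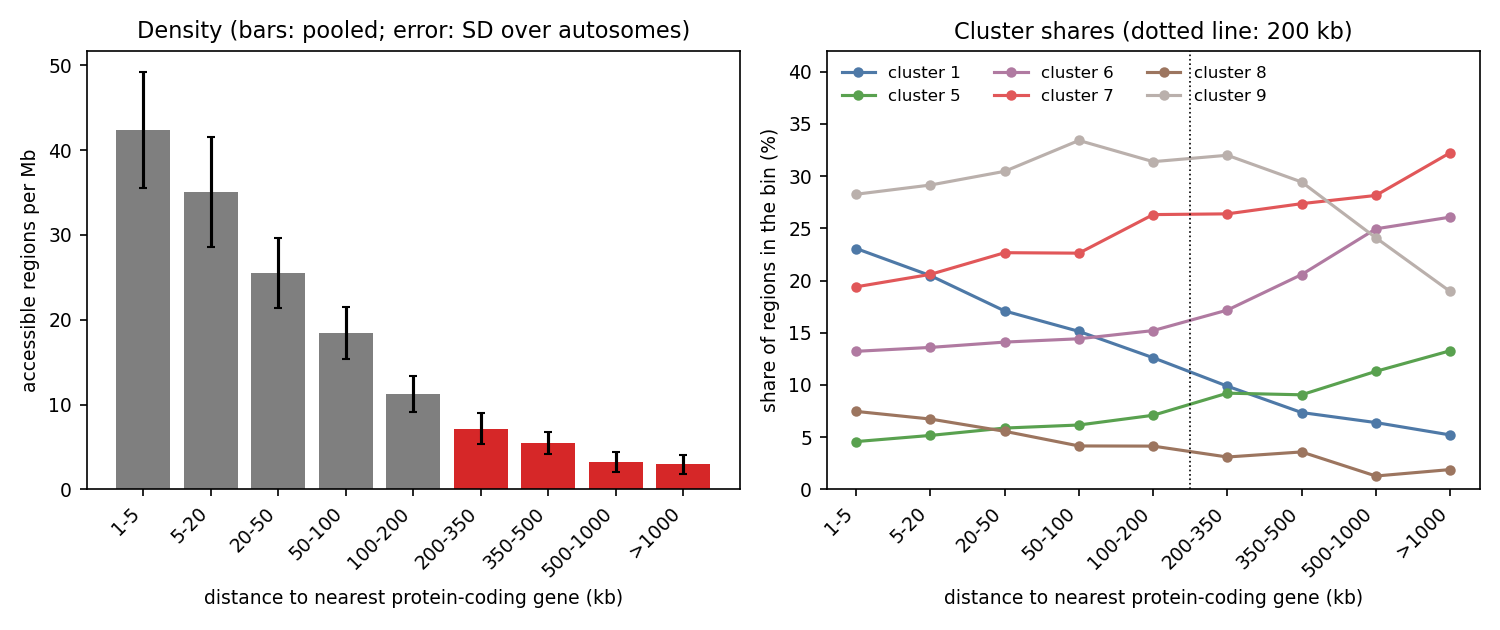
Left, accessible regions per Mb (bars, pooled over autosomes, with the SD over autosomes as error bars) by distance to the nearest protein-coding gene in kb, with desert classes in red. Right, share (%) of 6 clusters in the same distance classes, with a dotted line at 200 kb. Density goes from 42.4 per Mb at 1 to 5 kb to 2.97 beyond 1000 kb, while cluster 6 goes from 13.2% to 26.1% and cluster 1 goes from 23.1% to 5.21%.

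Desert regions were slightly narrower than near intergenic ones, though regions deep inside genes were narrow too. Pooled medians were 389 bp in deserts, 413 bp in near intergenic sequence and 375 bp deep inside genes, and deserts were not tested against the last. The median width on an autosome was 387 ± 22.8 bp in deserts (lowest 332, median 389, highest 425 bp) and 415 ± 10.7 bp near genes (394, 415 and 432 bp), lower on 15 autosomes and higher on 3 (-27.7 bp, exact adjusted p = 0.000397). With 1 region kept per 50 kb the difference was -5.08 bp (exact adjusted p = 0.546), and beyond 500 kb it was -23.6 bp (exact adjusted p = 0.0859). Within clusters, the pooled median width in deserts was below that near genes in each of the 9. For cluster 9 the medians were 267 and 291 bp, for cluster 7 326.5 and 342 bp, and for cluster 6 504.5 and 584 bp. Those of cluster 1 were 406 and 448 bp and those of cluster 5 775 and 800.5 bp. Cluster 4 had the largest gap, with 1025.5 and 1569 bp. Cluster 9 was the narrowest in deserts, with 645 of 691 members at most 500 bp wide, and cluster 3 the widest, with a median of 1276 bp.

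A few desert regions were very wide. The widest was a cluster 6 region of 5318 bp (chr13:97481239-97486556) between Enc1, an actin-binding protein of the nervous system, and Arhgef28, a guanine nucleotide exchange factor. A cluster 1 region of 3509 bp (chr13:97492012-97495520), the widest of that cluster, lay in the same gap. That gap held 15 members in 0.246 Mb of desert sequence. The next was a cluster 6 region of 3966 bp (chr12:109946958-109950923) between Rtl1 and Dio3, genes of the imprinted Dlk1-Dio3 domain. Cluster 4 had a member of 3422 bp (chr3:11210957-11214378, 773 kb from a gene) between Snx16 and Ralyl, and cluster 7 one of 3126 bp (chr7:73138363-73141488) between Mctp2 and Rgma, a repulsive axon guidance molecule. The widest member of cluster 2 spanned 1582 bp (chr3:16482118-16483699), of cluster 3 2351 bp (chr9:17556122-17558472), of cluster 8 2648 bp (chr13:52188720-52191367) and of cluster 9 2473 bp (chr16:15292770-15295242).

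Members lay far from one another. On an autosome the median distance to the nearest accessible region of any kind was 37.3 ± 10.2 kb for desert regions (lowest 18.2, median 36.8, highest 57.5 kb) and 6.25 ± 0.583 kb for near intergenic ones (5.25, 6.21 and 7.24 kb), with all 19 autosomes higher and no overlap (exact adjusted p = 7.63e-06). Regions inside genes counted as neighbours too, and the member rule keeps those more than 200 kb from every member. The direction was thus partly set by the rule and by the lower density, and it is no separate result. Pooled, 40.8% of members (980) had no other region within 50 kb, against 5.63% of near intergenic regions, and 12.4% had one within 5 kb, against 41.9%. For the regions deep inside genes the pooled median was 18.4 kb, between the 36.4 kb of desert and the 6.14 kb of near intergenic regions. The most isolated member was 1581 kb from any other region.

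How often neighbouring regions shared a cluster was not shown to differ between deserts and near intergenic sequence. Of adjacent pairs on an autosome, 22.2% ± 4.87 were in the same cluster in deserts and 22.5% ± 1.23 near genes, with 10 autosomes higher and 9 lower (exact adjusted p = 0.798). The mean difference of -0.287 percentage points had an SD of 4.88 over autosomes, so small differences were not detectable. Pooled, 425 of 1863 desert pairs matched (22.8%), where the cluster sizes alone give 21.7%. Near genes, 3514 of 15672 pairs matched (22.4%), where the cluster sizes alone give 19.9%. The excess over the cluster sizes was not tested. Among pairs within 5 kb, 26.3% of 156 matched in deserts, against 21.1% of 4808 near genes. By cluster, 32.8% of the neighbours of cluster 9 members were in cluster 9 and 27.4% of those of cluster 7 in cluster 7, and 9.15% of the neighbours of cluster 1 members were in cluster 1. Among all members these clusters made up 28.7%, 27.5% and 8.24%.

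Of the members, 2401 lay in 538 gaps between neighbouring protein-coding genes, called here by their flanking genes, and 3 lay beyond the outermost gene of a chromosome, 1 in each of 3 chromosome ends. The counts below are over these 541 stretches. Another 199 gaps had desert sequence but no member. The median was 3 members in a gap, 125 gaps had 1, and 58 gaps with 10 or more held 796 members (33.1%). Chromosomes 1, 3 and 13 had most members (210, 206 and 175) and chromosome 19 fewest (29). Cluster 9 led in 23 of these 58 gaps, cluster 7 in 16 and cluster 6 in 8, and 11 were tied. In the 292 gaps with at least 0.5 Mb of desert sequence the density had a median of 3.66 per Mb (quartiles 1.98 and 6.20).

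The 10 gaps with most members held 204 (8.49%). Plekhb2-Hs6st1 on chromosome 1 had 23, followed by 22 each in Bcl11a-Fancl, Mn1-Cryba4 and 1810013L24Rik-Grin2a, and 20 each in Sall3-Galr1, Gm4868-Tmem132c and Cd83-Jarid2. They were of different kinds. In 1810013L24Rik-Grin2a (chr16:8858925-9567900), next to an NMDA receptor subunit gene, the 22 members fell in 0.309 Mb of desert sequence, or 71.2 per Mb. They were wide, with a median of 674.5 bp, and of many clusters (6 of cluster 7, 6 of cluster 9, 4 of cluster 6, 3 of cluster 8, 2 of cluster 3 and 1 of cluster 4). In Mn1-Cryba4 (chr5:111457031-112246491), 56.5 per Mb, 13 of 22 were cluster 9 and the median width was 388.5 bp. Mn1 encodes a transcriptional coactivator. In Cd83-Jarid2 (chr13:43803134-44730773), beside the gene of the Polycomb cofactor JARID2, 9 of 20 were cluster 9. This gap had the highest density (37.9 per Mb) of those with at least 0.5 Mb.

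The 5 longest deserts had 10 to 19 members each, at densities of 2.79 to 4.90 per Mb that lay within the quartiles of gaps with at least 0.5 Mb, and 4 of them flank cell adhesion genes of the nervous system. Pcdh20-Pcdh9 on chromosome 14, between protocadherin genes, spanned 4.54 Mb and had 16 members (3.86 per Mb of desert sequence). Celf4-Pik3c3 on chromosome 18 spanned 4.51 Mb and had 18 (4.38 per Mb). Olfm4-Pcdh17 spanned 4.42 Mb and had 15 (3.73 per Mb), of which 7 were cluster 6. Cntnap5b-Cdh20, between a contactin-associated protein gene and a cadherin gene, spanned 4.28 Mb and had 19 (4.90 per Mb), of which 8 were cluster 7. Tenm3-Aga, beside the teneurin gene Tenm3, spanned 3.99 Mb and had 10 (2.79 per Mb). The 5 members farthest from any gene were all on chromosome 14 in 2 of these gaps. The first was a cluster 6 region of 464 bp (chr14:82238244-82238707) 2205 kb from the nearest gene, and it was followed by cluster 1, 9, 9 and 7 regions of 273, 1070, 200 and 200 bp at 2153, 2149, 2039 and 1977 kb.

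**Figure D3:**
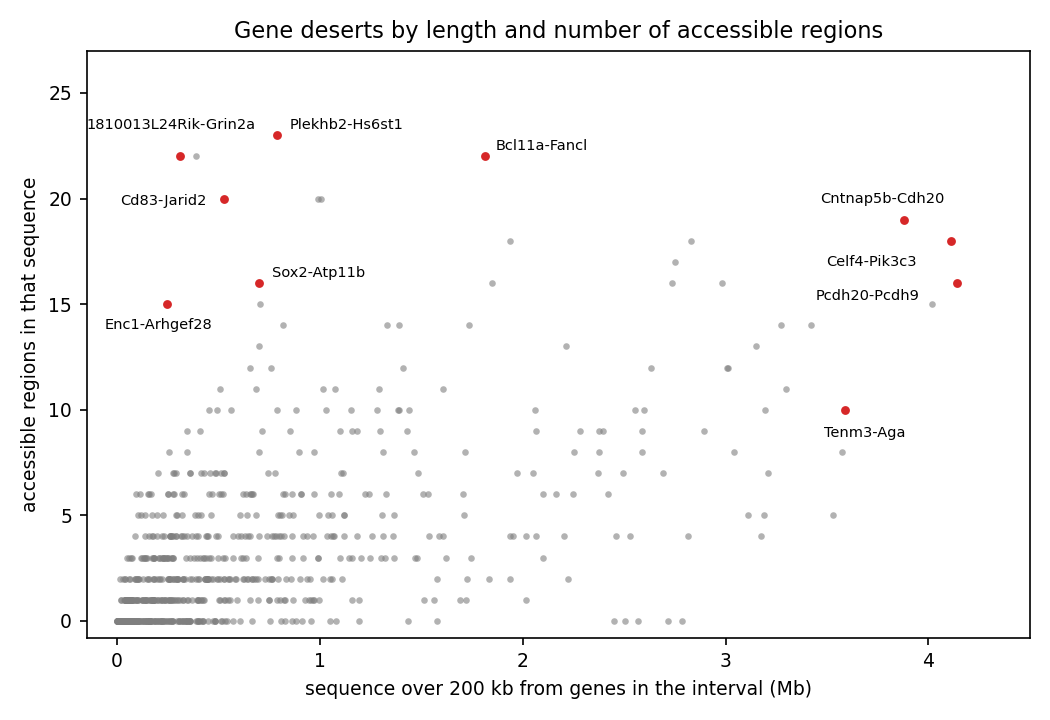
Number of desert regions (vertical axis) against the length of sequence more than 200 kb from genes (horizontal axis, Mb) in each gap between neighbouring protein-coding genes, with 1 point per gap and 10 gaps named in red. 1810013L24Rik-Grin2a holds 22 regions in 0.309 Mb, whereas Tenm3-Aga holds 10 in 3.59 Mb.

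Deserts beside pluripotency genes were more densely filled than deserts at large. Gaps flanked by at least 1 of the 40 autosomal genes of a naive pluripotency list held 101 members in 12 of 13 gaps, at 13.9 per Mb of desert sequence, and those of a formative and primed pluripotency list held 52 members in 5 of 5 gaps, at 10.9 per Mb. Of the 101 members, 20 lay in Cd83-Jarid2 (37.9 per Mb), as the naive list included Jarid2. Of the 52 members, 17 and 7 lay on either side of Cdh2 and 20 in Sall3-Galr1. Cdh2 was also on a list of neuronal adhesion genes and Sall3 on one of developmental transcription factors. All 737 gaps with desert sequence together had 5.01 per Mb. Since short gaps have more of their sequence close to genes, the same was counted at 200 to 500 kb only. There the values were 16.1 and 16.2 per Mb, against 6.53 per Mb over all gaps. Over all desert sequence of a gap, not only that at 200 to 500 kb, single gaps of the naive list ranged from 0 to 39.3 per Mb. Of these, 10 of 13 were above 5.01 per Mb, as were 318 of all 737 gaps. Single gaps of the formative list ranged from 6.18 to 19.9 per Mb. These are pooled counts over few gaps, some of which belong to more than 1 list, and no test was made of them.

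The desert between Sox2, a core pluripotency factor, and Atp11b (chr3:34652462-35754043) had 16 members at 22.8 per Mb. They comprised 7 of cluster 9, 4 of cluster 6, 3 of cluster 7 and 1 each of clusters 1 and 8. Its widest were both cluster 6, of 1757 bp (chr3:35391695-35393451) and 1325 bp (chr3:35404639-35405963), and both lay nearer to Atp11b. Nr5a2-Ptprc, beside the nuclear receptor gene Nr5a2, had 15 members with 5 of cluster 6. Med13l-Tbx3, beside the T-box factor gene Tbx3, had 11 with 6 of cluster 9. Klf5-Klf12, between Krüppel-like factor genes, had 6 in 0.153 Mb of desert sequence (39.3 per Mb), and Cyria-Mycn had 6 in 0.155 Mb (38.7 per Mb). On either side of the proto-oncogene Myc, A1bg-Myc had 6 (9.04 per Mb) and Myc-Gsdmc had 10 (7.22 per Mb), of which 5 were cluster 7. Nr5a2-Ptprc and Med13l-Tbx3 had 21.4 and 21.8 per Mb. Of the formative list, Rragc-Pou3f1, beside the POU factor gene Pou3f1, had 5 members, all of cluster 9 and 200 to 418 bp wide. Cdh2-Dsc3, beside the N-cadherin gene Cdh2, had 17 (6.18 per Mb), with 9 of cluster 7, and Chst9-Cdh2 on its other side had 7 (16.3 per Mb). Rragc-Pou3f1 had 15.6 per Mb.

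Genes of development and of neuronal adhesion bordered deserts at far higher shares than protein-coding genes at large, whereas the densities in those deserts lay on both sides of the average. Of 20665 autosomal protein-coding genes, 1299 (6.29%) flanked a desert. The count was 65 of 123 developmental transcription factors (52.8%), 85 of 111 neuronal adhesion and synapse genes (76.6%), 22 of 62 embryonic signalling genes (35.5%), 11 of 40 naive pluripotency genes (27.5%) and 4 of 18 formative genes (22.2%). Deserts of developmental factors had 288 members at 6.73 per Mb, those of neuronal adhesion genes 555 members at 3.68 per Mb and those of signalling genes 44 members at 5.83 per Mb. At 200 to 500 kb the densities were 8.28, 4.58 and 5.92 per Mb. Around developmental factors 36.1% of members were cluster 9 and 15.6% cluster 6, and around neuronal adhesion genes 22.5% were cluster 9 and 24.3% cluster 6, beside 28.7% and 20.2% of the members in all gaps. Distances differed too, with 54 of 288 members around developmental factors beyond 500 kb and 303 of 555 around adhesion genes. At 200 to 500 kb alone, cluster 9 made up 37.2% around developmental factors, 24.6% around adhesion genes and 31.2% in all gaps, and cluster 6 made up 15.4%, 23.0% and 18.2%. The difference between the lists was not tested. The lists were composed from general knowledge of these genes, and deserts at such genes are well known, so the shares of flanking genes describe the genome rather than these cells.

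Single gaps varied within both lists. Adamts16-Irx1, beside the Iroquois homeobox gene Irx1, had 9 members of which 7 were cluster 9. Meis1-Spred2 had 6 with 4 of cluster 9, Celf2-Gata3 had 10 with 3 each of clusters 5 and 9, and Tbx18-Nt5e had 5 with 2 of cluster 9. Nr2f1-Arrdc3, beside an orphan nuclear receptor gene, had 5 of 9 in cluster 6. Sall3-Galr1, beside the zinc finger gene Sall3, had 8 of 20 in cluster 9. Among cadherin genes, Cdh6-Cdh9 had 13 members with 5 of cluster 6, Got2-Cdh8 had 16 with 5 each of clusters 6 and 7, Serpinb8-Cdh7 had 7 with 3 of cluster 9 and 1 of cluster 6, and Cdh18-Basp1 had 7 with 2 of cluster 9 and 1 of cluster 6. Of the signalling list, Wac-Fzd8, beside a Frizzled receptor gene for Wnt ligands, had 10 members with 5 of cluster 7, and Fgf9-1700129C05Rik had 6. The fibroblast matrix genes, markers of the feeder layer, flanked 4 deserts with 0.399 Mb of desert sequence in all and no member, a stretch too short to compare with the 5.01 per Mb of all gaps.

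**Figure D4:**
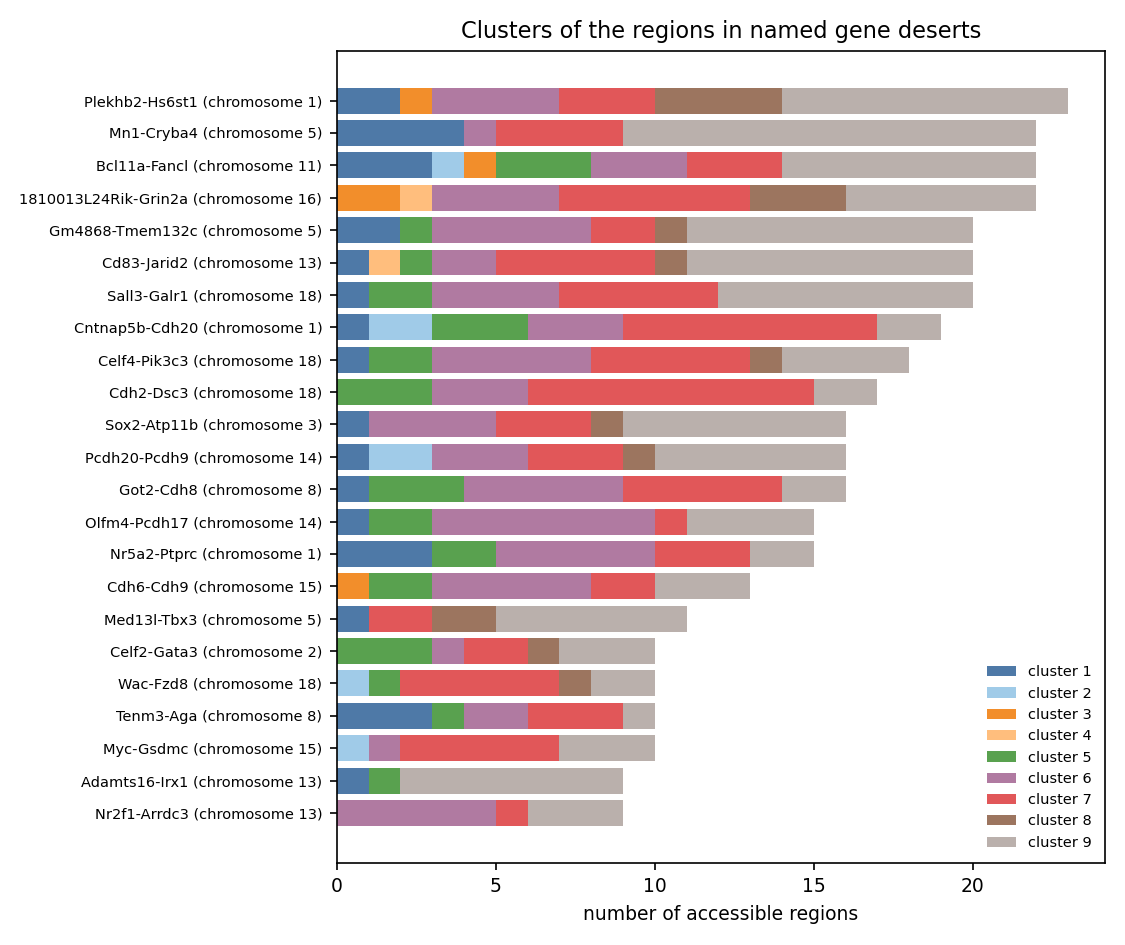
Number of desert regions by cluster (colours) in gaps with at least 9 members that were named by number of members, length or gene list, 1 bar per gap. Cluster 9 fills 13 of 22 in Mn1-Cryba4 and 7 of 9 in Adamts16-Irx1, cluster 7 fills 9 of 17 in Cdh2-Dsc3, and cluster 6 fills 7 of 15 in Olfm4-Pcdh17.

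A minority of desert regions touched an annotated gene of another kind. In all, 408 members (17.0%) lay inside a lncRNA gene or within 1 kb of one, 40 (1.66%) at pseudogenes and 4 within 1 kb of a small RNA gene. A further set of 30 (1.25%) lay in antigen receptor loci, whose segments are not listed as protein-coding. These were 18 in the immunoglobulin kappa locus on chromosome 6, 9 in the T cell receptor alpha locus and 3 in the immunoglobulin heavy chain locus. The remaining 1929 (80.2%) touched no annotated gene, against 75.7% of near intergenic regions. Only 80 members (3.33%) lay within 1 kb of a lncRNA limit, against 7.31% of near intergenic regions. Of these 80, 16.3% (13 regions) were cluster 1, 32.5% cluster 9 and 22.5% cluster 7. Of the 1996 members away from lncRNA genes, 7.87% were cluster 1, 27.9% cluster 9 and 28.1% cluster 7.

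The starts of desert lncRNA genes were rarely accessible and poor in CpG. The 3.13% of their windows that lay in an accessible region compare with 682 of 6069 windows (11.2%) of lncRNA genes in near intergenic sequence and 11949 of 20085 windows (59.5%) of protein-coding genes. The median number of CpG in 300 bases was 4.5 in the 32 accessible desert windows (range 0 to 18), 2 in the 991 not accessible, 7 in accessible windows of near intergenic lncRNA genes and 22 in those of protein-coding genes. By cluster the accessible desert windows had medians of 18 in cluster 3 (2 windows), 8.5 in cluster 9 (8), 6 in clusters 1 (7) and 7 (4), 4 in cluster 4 (1 window), 3 in clusters 5 (5) and 8 (2 overlapping windows of Gm33041) and 0 in cluster 6 (3). The printed windows of Gm26901 and C330004P14Rik are near the ends of this range. Letters bound by pluripotency factors were searched on both strands. The octamer ATGCAAAT was in 1 of the 32 (3.13%, against 1.75% of all 31396 windows), the SOX core CATTGT in 5 (15.6%, against 12.2%) and the KLF letters GGGTGTGG in 0 (against 3.57%). In the 991 desert windows that were not accessible, the shares were 2.52%, 23.8% and 2.52%. The SOX core was thus less frequent in the accessible desert windows than in the other desert windows, which was not tested. These letters may overlap one another, and a match is no evidence of binding.

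**Figure D5:**
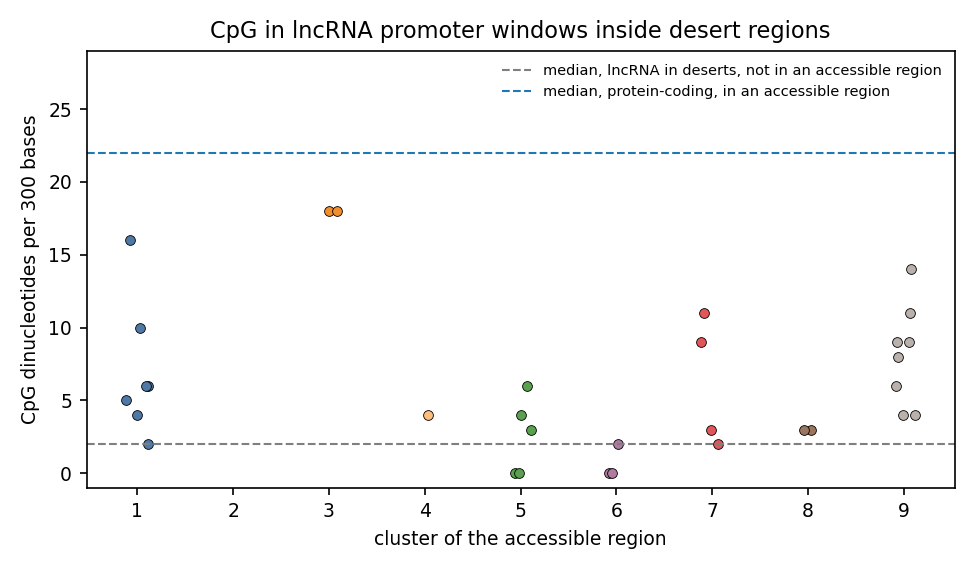
CpG dinucleotides per 300 bases (vertical axis) in the 32 lncRNA start windows that lie in desert regions, by cluster of the region, 1 point per window. Dashed lines mark the medians of desert lncRNA windows outside accessible regions (2) and of protein-coding windows in accessible regions (22), and all points lie below the upper line, the highest being cluster 3 at 18.

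Of 44 microRNA hairpins in desert sequence, from 919 on the autosomes, 1 lay within 1 kb of a member (2.27%) and 6 within 10 kb (13.6%), where 1.25% and 8.94% of all desert sequence lies that close. The closest was Mir125b-1 (chr9:41581926-41582002), 834 bp from a cluster 1 region of 322 bp (chr9:41580771-41581092). It is hosted by the lncRNA gene Mir100hg, whose start window lies in another cluster 1 region (chr9:41474635-41474961, 327 bp). miR-125b is a homologue of the developmental timing regulator lin-4 of worms. For the 3 hairpins nearest to a member, 1 mature sequence each is printed, for Mir125b-1 the 5p arm and not the 3p arm. The seed (bases 2 to 8), the part that pairs with target messages, is in capitals, and the 3 sequences share no seed.
mmu-miR-125b-5p: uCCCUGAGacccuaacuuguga
mmu-miR-6341: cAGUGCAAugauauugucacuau
mmu-miR-6390: gAAUUGAUcaggauguaacca
The gap around Mir125b-1, Ubash3b-Gm40514, had 9 members, 3 of cluster 1 and 6 of cluster 9. Mir100 and Mirlet7a-2, hosted by the same lncRNA gene, were 15.8 and 21.1 kb from the nearest of them. Mir6341 was 1.11 kb from a cluster 9 region, and Mir6390 was 4.91 kb from a cluster 6 region.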

How the data were processed

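The authors deposited 1 table for the series, in which each region has a position, counted from 0, and a cluster name. Per the submitters' processing notes, cutadapt 1.18, Bowtie2 2.3.3.1, Picard and SAMtools 1.6 were used with mm10. How regions were called, joined over 6 libraries and clustered, and the depth per library, are not given in the sources used here. Positions were counted from 1.

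Regions were placed by midpoint against 20665 autosomal protein-coding genes of a RefSeq table (GRCm38.p6) that has limits but no exons. Differences within autosomes with at least 10 regions of each class were tested by a two-sided exact permutation test of sign changes, and p-values were adjusted after Benjamini and Hochberg over 27 cluster shares and over 4 other measures. The smallest p for 19 autosomes is 3.81e-06. The cluster share tests were tried on these regions with cluster labels shuffled within autosomes, with and without cluster 5 labels added among members. Gaps named were the 10 with most members, the 5 longest, the first 6 with 5 or more members of each gene list, and those of the 5 farthest and 5 widest members and of the widest per cluster. Enc1-Arhgef28, Ubash3b-Gm40514 and the lncRNA and microRNA genes were named after their values were seen. Some results at single gaps are not reported here. The members and lists were chosen with earlier results of these data known. Alternatives were other distances, genes, positions, widths, spacings and each autosome left out. Another distance replaced 200 kb in every class, near intergenic regions included. Analyses ran in Python 3.11.15 with SciPy 1.17.1, numpy 2.4.6, matplotlib 3.10.9 and pandas 2.3.3.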

Additional observations from a re-analysis of the deposited data

How the results depend on the processing

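No paired analysis was possible because the table holds no value per library, so a replicate block could not be fitted. Of 9 clusters, the number differing from near intergenic regions was 7, and it was 4 with distances to all annotated genes (11 autosomes) and 4 among regions of 200 to 500 bp, where clusters 1, 6, 7 and 8 passed. At that width clusters 2, 3 and 4 had 4, 3 and 0 autosomal regions in all, too few for any of them to pass. Against all other regions, gene ends included, the number was 9, then 5 and 4 under the same settings. Against deep gene-body regions it was 2, then 1 at 100 kb (cluster 5, with clusters 1 and 6 both lost) and 0 both with 1 region per 50 kb and at 200 to 500 bp, and 1 to 2 with each autosome left out. The width difference (-27.7 bp) did not pass beyond 500 kb (-23.6), with all annotated genes (-14.4) or with 1 region per 50 kb (-5.08). The difference in same-cluster pairs was 0.0395 percentage points at 100 kb, 0.0247 with 1 region per 50 kb, 0.195 at 200 to 500 bp and 1.87 for pairs within 10 kb, a setting added after seeing the data, and ran from -0.717 to 0.191 with each autosome left out.

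Directions turned for cluster 9 against near intergenic regions at 100 kb (0.188), for cluster 2 beyond 500 kb (0.541), with 1 region per 50 kb (0.267), at 200 to 500 bp (0.0349) and without lncRNA genes (0.0217, added after seeing the data), and for cluster 5 against deep regions at 200 to 500 bp (-0.0823). At 200 to 500 bp cluster 2 had only 1 desert and 1 near intergenic region, so its direction there carries no weight. Cluster 9 against all other regions was -4.67 beyond 500 kb (exact adjusted p = 0.00527), -2.83 with all annotated genes, -0.13 with 1 region per 50 kb, -2.61 at 200 to 500 bp and -1.40 without gene ends. The cause was not tested. Leaving out the gap with most members or antigen receptor loci (added after seeing the data) turned no direction. The comparison with deep regions had too few autosomes beyond 500 kb (3) and with all annotated genes (6). Density was not run with 1 region per 50 kb, without antigen receptor loci or without lncRNA genes, and nearest distance was not run with 1 region per 50 kb. Depth is unknown, so its limit on weak regions cannot be given.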

Other observations

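The X chromosome stands outside the autosomal comparison and had 70 regions that met the same distance rule. They comprised 24 of cluster 9 (34.3%), 20 of cluster 7 (28.6%), 13 of cluster 6 (18.6%), 7 of cluster 1 (10%), 5 of cluster 5 (7.14%) and 1 of cluster 8. Of the 532 near intergenic regions of the X chromosome, 21.6% were cluster 9, 28.4% cluster 7, 22.4% cluster 6, 13.5% cluster 1 and 9.59% cluster 5. Cluster 1 was thus the smaller share in the deserts of this chromosome too, while clusters 5 and 6 were not the larger. With 1 chromosome there was no test.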
